A study of Mus musculus with 3 samples.

Results

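The genes described here are the 9 that write, copy and remove DNA methylation in the mouse: the maintenance pair *Dnmt1* and *Uhrf1*, the de novo group *Dnmt3a*, *Dnmt3b* and *Dnmt3l*, the oxidases *Tet1*, *Tet2* and *Tet3*, and the glycosylase *Tdg*. They were taken by symbol from expression tables that list 17633 genes, and all 9 had reads in each of the 3 germ layers profiled. The samples were endoderm, mesoderm and epiblast of ICR mouse embryos at embryonic day 7.5, with no treatment or transgene named in the labels, separated by enzyme digestion and by hand from the embryonic region and pooled over many embryos. The epiblast sample also holds the neuroectoderm and the primitive streak. Each layer was sequenced as 1 library, with 42.7 M counted reads in epiblast, 41.7 M in endoderm and 40.8 M in mesoderm, so no value has a replicate check, and the 95% intervals given here cover counting error only.

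Methylation of cytosine, mainly where a C is followed by a G, is a heritable mark that helps to keep promoters, repeats and imprinted loci silent. When DNA is copied, Uhrf1 recognises the hemimethylated product and brings in Dnmt1, which restores the mark on the new strand. Dnmt3a and Dnmt3b place marks on unmethylated DNA, and Dnmt3l, which has no catalytic activity of its own, binds and stimulates them. The Tet proteins oxidise methylcytosine, Tdg cuts out the most oxidised forms, and base excision repair then restores a plain cytosine. In the mouse the genome gains most of its methylation around implantation, shortly before the stage sampled here.

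The layer labels were checked on 5 marker genes a layer, and each of the 15 had its highest level in its own layer. The endoderm markers (*Sox17*, *Foxa2*, *Afp*, *Ttr*, *Apoa1*) stood in mesoderm at 0.0494 to 3.17% and in epiblast at 0.0150 to 5.86% of their endoderm level. In endoderm *Afp*, *Ttr* and *Apoa1* stood at RPKM 441, 1013 and 2376, and *Sox17* and *Foxa2* at 39.5 and 44.0. Which kinds of endoderm the sample holds was not tested, so its values describe the sample as a whole. The epiblast markers (*Sox2*, *Pax6*, *Pou5f1*, *Utf1*, *Sox1*) stood in endoderm at 0.928 to 9.15% and in mesoderm at 0.656 to 23.1% of their epiblast level, with *Utf1* highest in the former and *Pou5f1* in the latter. The mesoderm markers (*Foxf1*, *Kdr*, *Mesp1*, *Hand1*, *Tbx6*) stood in endoderm at 0.451 to 9.75% and in epiblast at 1.89 to 88.2% of their mesoderm level, with *Tbx6* at the upper end. The study defined the epiblast sample as including the streak, where *Tbx6* is known to be expressed.

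Levels are given as RPKM, reads per kilobase of gene length scaled to library size, which allows genes of different length to be compared within a library. Following the criteria of the study, a gene was called different between 2 libraries when its RPKM was over 5 in at least 1 of them, its RPKM differed by more than 2-fold, and the Audic and Claverie exact test of its reads gave a false discovery rate under 0.001. That test compares 2 libraries and not 2 tissues, so the calls serve as a count of differences beyond 2-fold and no p-value is given. Against mesoderm, endoderm differed for 1 of the 5 members that passed the RPKM criterion, *Dnmt3a*, which was higher in mesoderm. The share called among all 8867 genes tested was 23.0%, of which 8.56% of the genes tested were higher in mesoderm and 14.4% in endoderm. Against epiblast, endoderm differed for 2 of 6 members, *Dnmt3a* and *Dnmt3b*, both higher in epiblast, while 24.6% of 8843 genes were called, 8.94% higher in epiblast and 15.7% higher in endoderm. Between mesoderm and epiblast 1 of 6 members was called, *Dnmt3b*, which was higher in epiblast. There 10.3% of 8340 genes were called, 5.02% higher in epiblast and 5.3% higher in mesoderm. With 5 or 6 members eligible in each comparison, 1 or 2 calls are too few to set the members apart from these background shares, and the members are described gene by gene. *Dnmt3l*, *Tet2* and *Tdg* never passed RPKM 5, and *Tet1* passed it only through its epiblast level.

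**Figure D1:**
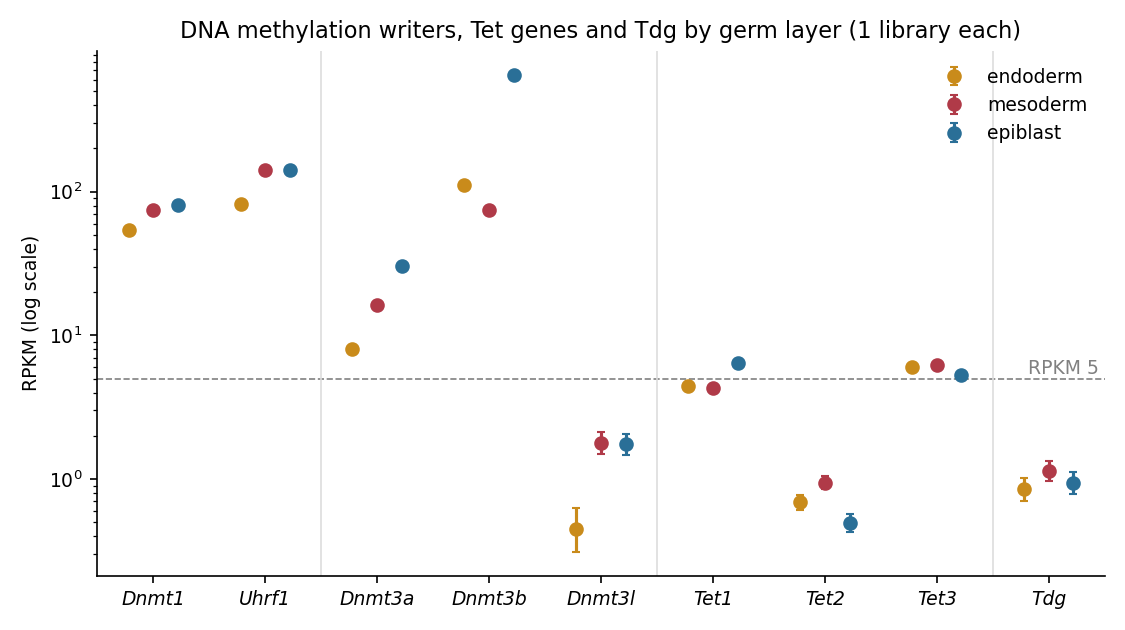
RPKM of the 9 genes (log axis) in the endoderm, mesoderm and epiblast libraries, with 95% counting intervals, which are smaller than the symbols for the abundant genes; the dashed line marks RPKM 5 and the vertical lines separate the functional groups. *Dnmt3b* in epiblast, at RPKM 649, stands far above all other values, while *Dnmt3l*, *Tet2* and *Tdg* lie below the dashed line in every library.

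The largest differences among the 9 genes were those of *Dnmt3b* (chr2:153649450-153687730, plus strand; positions are on build GRCm38), which encodes the main de novo methyltransferase of the embryo after implantation. It had 119861 reads in epiblast, 20123 in endoderm and 13141 in mesoderm, which correspond to RPKM 649, 112 and 74.3. The level in epiblast was 5.81-fold that in endoderm (95% interval 5.72 to 5.90) and 8.72-fold that in mesoderm (8.57 to 8.88). *Dnmt3b* was the 117th most abundant of 16430 genes with reads in epiblast, and ranked 648 in endoderm and 1025 in mesoderm. Among 3946 tested genes that were higher in epiblast than in mesoderm, 62 had a larger fold, and of the 4771 that were higher in epiblast than in endoderm, 163 did. Endoderm exceeded mesoderm by 1.502-fold (1.47 to 1.54), below the 2-fold criterion, so the order of the layers for this gene was epiblast, endoderm, mesoderm. In bulk samples fewer cells that express a gene and less RNA per cell cannot be told apart. *Dnmt3b* stood in endoderm at 17.2% of its epiblast level, above each of the 5 epiblast markers, of which *Utf1* came closest at 9.15%. In mesoderm it stood at 11.5%, above 4 of the 5 markers and below *Pou5f1* at 23.1%. Of the 5 markers, *Pax6* and *Sox1* had only 2 and 4 reads in endoderm and 8 each in mesoderm, so their percentages are uncertain. How far epiblast cells carried over in the dissection contributed to the *Dnmt3b* levels was not tested.

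**Figure D2:**
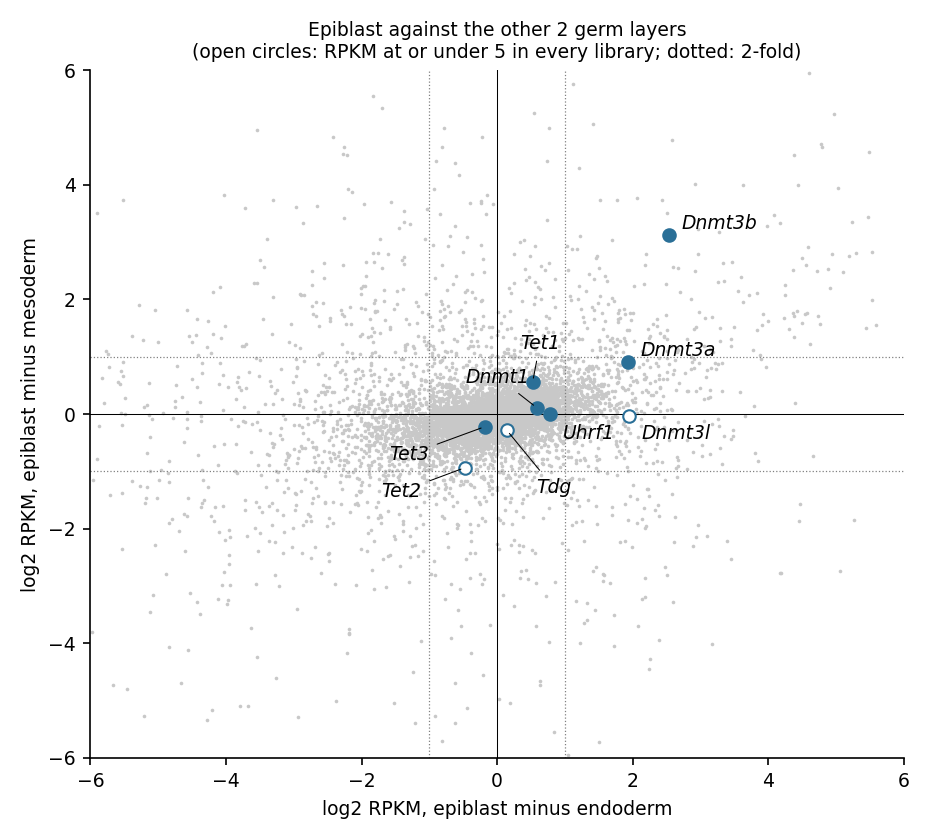
Difference in log2 RPKM between epiblast and endoderm (horizontal axis) and between epiblast and mesoderm (vertical axis) for the 9 genes and, in grey, for 9135 genes with RPKM over 5 in at least 1 library of either pair; open circles are members at or under RPKM 5 throughout, and 152 grey genes outside the axes are not drawn. *Dnmt3b*, at 2.54 and 3.13, is the only member beyond the 2-fold lines on both axes.

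*Dnmt3a* (chr12:3806007-3914443, plus strand), the second catalytic de novo enzyme, followed another order. It had 3246, 6431 and 12636 reads in endoderm, mesoderm and epiblast, or RPKM 8.005, 16.2 and 30.4, so that endoderm was lowest, mesoderm intermediate and epiblast highest. Epiblast exceeded endoderm by 3.797-fold (3.65 to 3.95) and mesoderm by 1.88-fold (1.82 to 1.94). Mesoderm exceeded endoderm by 2.02-fold (1.94 to 2.11). The lower bound of that interval is under the 2-fold criterion, and the call was lost when the libraries were scaled by TMM, by the median of ratios or to the same RPKM total, with a pseudocount of 1, and in an exact test that assumed biological variation. The ratio of *Dnmt3b* to *Dnmt3a*, which does not depend on how libraries are scaled to each other, was 13.9 in endoderm (13.4 to 14.5), 4.597 in mesoderm (4.46 to 4.74) and 21.3 in epiblast (20.95 to 21.7). The balance between both enzymes therefore differed most between mesoderm and epiblast.

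The promoters of these 2 genes are shown because they were the only members called, both with their highest level in epiblast. They are RefSeq sequences on build GRCm38.p6, each running from 250 bases before to 50 bases after an annotated start, on the plus strand, with every CG pair, whose C is the base that DNA methyltransferases modify, in capitals. The sequences are from chr2:153649199-153649498 for *Dnmt3b*, chr12:3806910-3807209 for the upstream start of *Dnmt3a* and chr12:3891494-3891793 for an internal start of *Dnmt3a*.
Dnmt3b: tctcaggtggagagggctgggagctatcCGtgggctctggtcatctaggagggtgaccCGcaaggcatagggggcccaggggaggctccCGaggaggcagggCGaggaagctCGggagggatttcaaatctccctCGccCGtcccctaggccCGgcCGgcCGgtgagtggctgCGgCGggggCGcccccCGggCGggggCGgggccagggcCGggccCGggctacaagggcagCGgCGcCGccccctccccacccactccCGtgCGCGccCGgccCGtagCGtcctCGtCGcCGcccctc
Dnmt3a, upstream start: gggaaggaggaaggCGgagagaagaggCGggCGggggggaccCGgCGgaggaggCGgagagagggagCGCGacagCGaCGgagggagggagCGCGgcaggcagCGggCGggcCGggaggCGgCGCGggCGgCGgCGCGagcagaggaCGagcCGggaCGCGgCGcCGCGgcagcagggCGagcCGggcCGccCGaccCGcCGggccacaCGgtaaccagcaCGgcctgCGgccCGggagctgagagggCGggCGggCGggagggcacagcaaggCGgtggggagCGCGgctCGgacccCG
Dnmt3a, internal start: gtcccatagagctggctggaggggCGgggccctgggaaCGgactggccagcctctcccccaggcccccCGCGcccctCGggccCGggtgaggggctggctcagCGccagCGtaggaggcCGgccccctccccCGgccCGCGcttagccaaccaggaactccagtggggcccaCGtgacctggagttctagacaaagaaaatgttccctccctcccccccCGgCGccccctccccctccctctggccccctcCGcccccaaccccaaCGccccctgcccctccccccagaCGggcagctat
The *Dnmt3b* window holds 30 CG pairs, and 11.7% of all 32851 promoters in the table hold as many or more. The upstream *Dnmt3a* window holds 47, a number reached by 1.44% of promoters, and a neighbouring annotated start at chr12:3806730-3807029 holds 46. The internal window, inside the *Dnmt3a* gene, holds 18, a number reached by 29.7%. The median promoter holds 7. Both genes carry the letters GGGCGG, the core of a GC box, on at least 1 strand in each of these windows, as do 35.7% of all promoters. The octamer ATGCAAAT, the motif bound by Pou5f1 and other POU factors, was in none of the 16 windows of the 9 genes on either strand and in 1.74% of all promoters. These matches are a description of the windows. The tables count reads per gene, so the use of the upstream and of the internal *Dnmt3a* start cannot be told apart.

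*Dnmt3l* (chr10:78041947-78063622, plus strand) was the scarcest of the de novo group. It had 34, 132 and 135 reads in endoderm, mesoderm and epiblast, that is RPKM 0.450, 1.78 and 1.74, with 62.3, 80.3 and 77.0% of the gene length covered. Endoderm was low, while mesoderm and epiblast were indistinguishable within counting error, with a ratio of 1.02 (0.798 to 1.31). Mesoderm exceeded endoderm by 3.96-fold (2.70 to 5.95) and epiblast exceeded it by 3.87-fold (2.64 to 5.82), but at these levels the gene did not enter the calls, and both folds shrink to under 2-fold with a pseudocount of 1. *Dnmt3a* was 17.8 times as abundant as *Dnmt3l* in endoderm, 9.08 times in mesoderm and 17.5 times in epiblast. *Dnmt3l* is known from germ cells and from extraembryonic ectoderm, so the markers of both were examined. The 6 germ cell markers (*Prdm1*, *Prdm14*, *Tfap2c*, *Nanos3*, *Dnd1*, *Dppa3*) summed to RPKM 9.92, 7.002 and 13.9 in endoderm, mesoderm and epiblast, and 5 of them were highest in epiblast. The endoderm sum was mostly *Prdm1*, at RPKM 7.61, which fell from endoderm to epiblast, with 1631, 420 and 108 reads. Without it the sums were 2.31, 5.003 and 13.4, so that endoderm was lowest, as for *Dnmt3l*. The likeness was partial, since this sum was higher in epiblast than in mesoderm, while *Dnmt3l* was level in both. *Tfap2c* had 17, 94 and 688 reads, *Dnd1* had 123, 237 and 429, and *Prdm14* had 10, 13 and 56. *Nanos3*, a defining gene of primordial germ cells, had 0 reads in endoderm and mesoderm and 6 in epiblast. The 7 genes of extraembryonic ectoderm and placenta (*Elf5*, *Cdx2*, *Eomes*, *Esx1*, *Ascl2*, *Tpbpa*, *Plac1*) summed to RPKM 55.3, 35.5 and 54.2 in the same order of layers, largely through *Cdx2*, *Eomes* and, in endoderm, *Plac1* and *Esx1*. *Esx1* had 478, 4 and 9 reads, *Ascl2* had 18, 74 and 112, *Elf5* had 10 to 31 a library and *Tpbpa* had none. By the methods of the study the extraembryonic part of the embryo was cut away before the layers were separated. The part of either cell type in the *Dnmt3l* values was not tested.

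The maintenance genes were abundant in all 3 layers and varied less. *Dnmt1* (chr9:20907209-20959888, minus strand), which copies methylation to the new strand, had 13172, 17974 and 20272 reads in endoderm, mesoderm and epiblast, or RPKM 53.8, 74.9 and 80.8. Endoderm was lowest, with mesoderm 1.39-fold (1.36 to 1.42) and epiblast 1.501-fold (1.47 to 1.53) above it, and epiblast exceeded mesoderm by 1.08-fold (1.06 to 1.10). *Uhrf1* (chr17:56303321-56323486, plus strand), the adaptor that brings Dnmt1 to newly copied DNA, had 12172, 20564 and 21544 reads, or RPKM 81.6, 140.5 and 141. It was again lowest in endoderm, by 1.72-fold (1.68 to 1.76) against mesoderm and 1.73-fold (1.69 to 1.77) against epiblast, and mesoderm and epiblast gave a ratio of 1.002 (0.983 to 1.02). None of these folds reached 2, and a difference of this size cannot be set against the spread between embryos, which 1 library a layer does not show. *Uhrf1* exceeded *Dnmt1* within every library, by 1.52-fold, 1.88-fold and 1.74-fold in endoderm, mesoderm and epiblast.

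The layers therefore differed in the makeup of their DNA methyltransferase transcripts. *Dnmt3b* made up 85.4% of the summed RPKM of *Dnmt1*, *Dnmt3a* and *Dnmt3b* in epiblast, 64.4% in endoderm and 44.9% in mesoderm. The share of *Dnmt1* was 10.6% in epiblast, 31.0% in endoderm and 45.3% in mesoderm. In epiblast *Dnmt3b* was 8.03 times as abundant as *Dnmt1* (7.91 to 8.15) and in endoderm 2.07 times (2.03 to 2.12), whereas in mesoderm both were level, at a ratio of 0.993 (0.971 to 1.02). The summed RPKM of the 3 enzymes was 173, 165 and 759.8 in endoderm, mesoderm and epiblast.

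**Figure D3:**
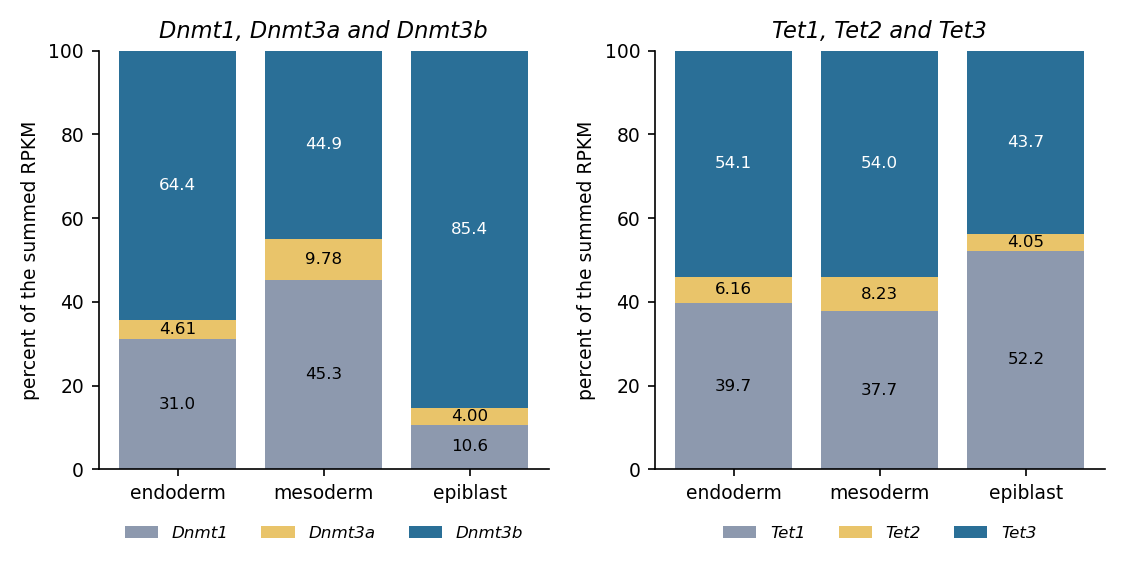
Share of each gene, in percent, in the summed RPKM of *Dnmt1*, *Dnmt3a* and *Dnmt3b* (left) and of *Tet1*, *Tet2* and *Tet3* (right), 1 bar per library. The *Dnmt3b* share ranges from 44.9% in mesoderm to 85.4% in epiblast, and *Tet1* passes *Tet3* only in epiblast.

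The Tet genes were expressed at much lower levels than the methyltransferases *Dnmt1* and *Dnmt3b*, and none was called in any comparison. *Tet1* (chr10:62804570-62908996, minus strand), the family member best known from pluripotent cells, had 2580, 2475 and 3803 reads in endoderm, mesoderm and epiblast, or RPKM 4.43, 4.33 and 6.37. Epiblast was highest, by 1.44-fold over endoderm (1.37 to 1.51) and 1.47-fold over mesoderm (1.40 to 1.55), while endoderm and mesoderm gave a ratio of 1.02 (0.967 to 1.08). *Tet3* (chr6:83362373-83459084, minus strand), known for oxidising the paternal genome in the zygote, had 2738, 2763 and 2481 reads in endoderm, mesoderm and epiblast, or RPKM 6.03, 6.201 and 5.33. Its largest ratio was 1.16 (1.10 to 1.23), mesoderm over epiblast. *Tet2* (chr3:133463679-133545139, minus strand), better known from blood cells, had 263, 355 and 194 reads, or RPKM 0.686, 0.945 and 0.494. It was highest in mesoderm, at 1.91-fold the epiblast level (1.60 to 2.29) and 1.38-fold the endoderm level (1.17 to 1.62). The first of these folds is as large as that of *Dnmt3a* in the same pair, but rests on 355 and 194 reads. The order within the family turned between layers. *Tet1* stood at 0.735 of *Tet3* in endoderm (0.696 to 0.776) and at 0.699 in mesoderm (0.661 to 0.738), and at 1.20 times *Tet3* in epiblast (1.14 to 1.26), where its share of the summed Tet RPKM was 52.2% against 39.7% and 37.7%.

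The summed RPKM of the 3 Tet genes was 11.1, 11.5 and 12.2 in endoderm, mesoderm and epiblast. Set against the 3 methyltransferases, the ratio of writers to Tet genes was 15.6, 14.4 and 62.3 in endoderm, mesoderm and epiblast. Without *Dnmt3b* it was 5.55, 7.93 and 9.12, so most of the excess in epiblast came from that gene. These are ratios of transcript levels and carry no information on protein or on methylation itself.

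Listed from high to low RPKM, the epiblast order was *Dnmt3b*, *Uhrf1*, *Dnmt1*, *Dnmt3a*, *Tet1*, *Tet3*, *Dnmt3l*, *Tdg* and *Tet2*, and the counting intervals of neighbours did not overlap. The endoderm order was *Dnmt3b*, *Uhrf1*, *Dnmt1*, *Dnmt3a*, *Tet3*, *Tet1*, *Tdg*, *Tet2* and *Dnmt3l*, in which the intervals of *Tet2* overlapped those of *Tdg* and *Dnmt3l*. In mesoderm *Uhrf1* came first, and the intervals of *Dnmt1* and *Dnmt3b* overlapped in the next place. *Dnmt3a*, *Tet3*, *Tet1*, *Dnmt3l*, *Tdg* and *Tet2* followed, with overlap between *Tdg* and *Tet2*. The place of *Tdg* in these orders is left without a reading, because its reads cannot be told apart from those of its copies, described next.

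*Tdg* (chr10:82629828-82650799, plus strand), which removes the oxidised bases made by the Tet proteins, was listed at very low levels. It had 114, 150 and 129 reads in endoderm, mesoderm and epiblast, or RPKM 0.850, 1.14 and 0.939. Mesoderm exceeded endoderm by 1.34-fold (1.04 to 1.73) and epiblast by 1.22-fold (0.954 to 1.55), and epiblast and endoderm gave a ratio of 1.10 (0.851 to 1.43). These counts are uncertain because the genome holds near-identical processed copies of the gene. *Gm9855*, a processed pseudogene (chr10:42054113-42055306, build GRCm38, minus strand), had 6037, 6440 and 7248 reads in endoderm, mesoderm and epiblast, or RPKM 50.05, 54.4 and 58.6. Of the reads counted for either, 1.85% were counted for *Tdg* in endoderm (95% interval 1.53 to 2.22), 2.28% in mesoderm (1.93 to 2.67) and 1.75% in epiblast (1.46 to 2.07).

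The likeness of both sequences is shown by the 120 bases of the *Tdg* coding sequence in which they differ most (coding bases 982 to 1101, chr10:82648009-82648627 with an intron between, plus strand, GENCODE M21 transcripts on GRCm38). Capitals mark the 5 bases that differ.
Tdg: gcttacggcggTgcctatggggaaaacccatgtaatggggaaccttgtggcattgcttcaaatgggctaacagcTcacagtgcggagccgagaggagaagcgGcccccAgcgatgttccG
Gm9855: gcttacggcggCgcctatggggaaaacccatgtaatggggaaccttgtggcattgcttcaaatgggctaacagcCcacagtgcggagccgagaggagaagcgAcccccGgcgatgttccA
Over the whole coding sequence of 1191 bases, *Gm9855* differed from *Tdg* at 9 positions (99.24% identical). A further processed copy on chromosome 15, *Tdg-ps*, differed at 14 (98.82%), and its reads were not examined here. Of all 50-base stretches of the *Tdg* transcript, 65.9% also occur in a transcript of another gene, as do 45.2% of all 100-base stretches. Most occur in *Tdg-ps*, which holds 1582 of the 1918 shared 50-base stretches and 968 of the 1293 shared 100-base stretches. Reads covered 26.5% of the *Tdg* length in endoderm, 27.0% in mesoderm and 20.98% in epiblast. Genes with RPKM within 2-fold of *Tdg* had a median coverage of 78.9, 83.2 and 82.0% in these libraries, and 2.001, 1.71 and 1.22% of them were covered less. *Gm9855* was covered over 86.4, 85.8 and 87.8% of the length given for it in the tables, 2896 bases, which is longer than its GENCODE model of 1194 bases. From these tables reads of *Tdg* and reads of its copies cannot be told apart, and the *Tdg* level and its order of layers are left without a reading.

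**Figure D4:**
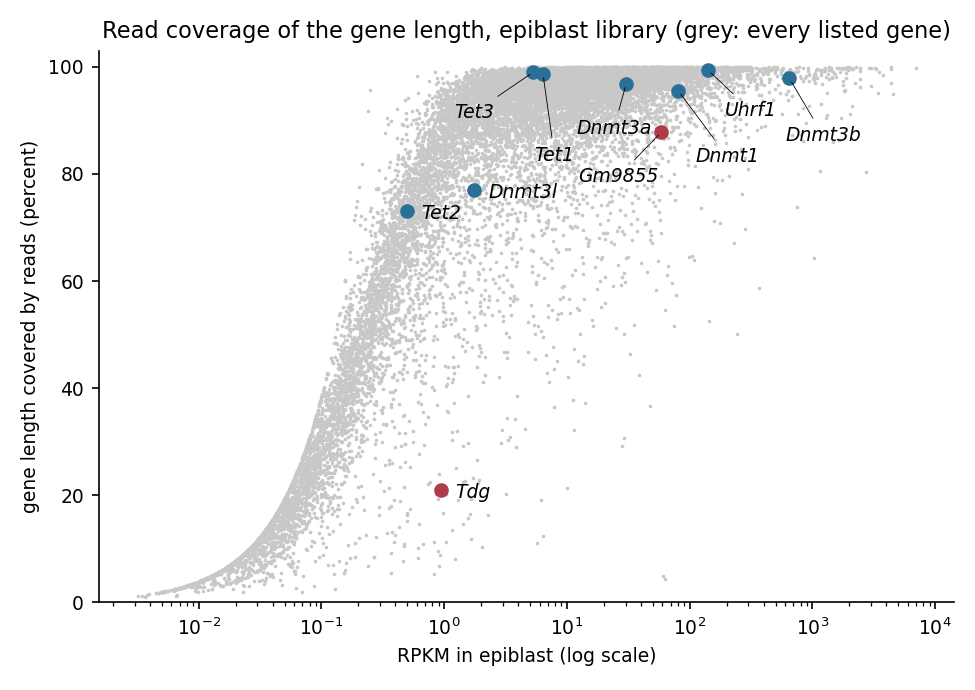
Percent of the gene length covered by reads (vertical axis) against RPKM (log axis) in the epiblast library, for every listed gene (grey), for *Tdg* and its processed copy *Gm9855* (red) and for the other 8 genes (blue). *Tdg*, at 20.98%, lies far below genes of like RPKM, while the other 8 genes lie within the main cloud.

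The same comparison of transcripts showed less sharing for the other 8 genes. *Uhrf1* shared 18.9% of its 50-base and 7.06% of its 100-base stretches with other genes, mainly *Gm5648*, and *Dnmt3b* shared 11.5% and 5.71% with *Dnmt3c*, a rodent-specific duplicate known from the male germline; neither copy was analysed here. *Tet1* shared 0.014% of its 50-base stretches, and *Dnmt1*, *Dnmt3a*, *Dnmt3l*, *Tet2* and *Tet3* shared none. Exons of *Dnmt3a*, *Dnmt3l*, *Tdg* and *Tet2* overlap genes of the opposite strand, by 133 bases with *Dnmt3aos*, 67 with *Aire*, 367 with *Glt8d2* and 43 with *Gm42567*. Whether reads were counted by strand is not given in the sources used here, so reads from such stretches cannot be told apart.

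The other genes of the pathway were examined in 5 lists. Among 9 readers of methylated CG pairs, 5 were eligible in each comparison and 1 call was made, *Mbd2*, a repressor that binds methylated DNA. It stood at RPKM 11.2, 6.03 and 3.93 in endoderm, mesoderm and epiblast, 2.86-fold higher in endoderm than in epiblast. That gradient ran opposite to the gradient of *Dnmt3a*. The related *Mbd3*, which does not bind methylated DNA in mammals and belongs to the NuRD complex, stood at 87.5, 114 and 105. The median log2 difference of the eligible readers was 0.00 in epiblast against endoderm, beside 0.08 over all genes tested. In that pair 24.6% of all genes tested were called, with 15.7% called higher in endoderm. With 5 eligible readers, 1 call cannot be set apart from these shares.

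Of 11 genes of base excision repair, 7 or 8 were eligible. *Apex1*, the endonuclease that cuts the DNA at the site left by Tdg, stood at RPKM 74.9, 152 and 158 in endoderm, mesoderm and epiblast, and was called higher in mesoderm (2.04-fold) and in epiblast (2.12-fold) than in endoderm. Both calls were lost with TMM, the median of ratios or the same RPKM total. *Neil3*, a glycosylase, stood at 1.88, 4.75 and 5.41, and its epiblast level was called 2.88-fold above that of endoderm. The *Neil3* call was lost with RPKM over 10. No gene of this list was called between mesoderm and epiblast, and none was called higher in endoderm. Among all genes tested, 10.3% were called between mesoderm and epiblast. The shares called higher in endoderm were 14.4% against mesoderm and 15.7% against epiblast. With 7 or 8 eligible genes, an absence of calls cannot be set apart from these shares. The median log2 difference of the eligible genes was 0.42 in mesoderm and 0.74 in epiblast against endoderm, beside 0.10 and 0.08 over all genes tested.

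The list of recruiters and partners holds 17 genes, of which 14 were eligible in each comparison. *Cdca7*, which helps the remodeller Hells to open chromatin for methylation, stood at RPKM 35.7, 77.0 and 120.1 in endoderm, mesoderm and epiblast, and was called in mesoderm (2.16-fold) and in epiblast (3.36-fold) against endoderm, the former not with TMM or the median of ratios. *Hells* itself stood at 48.99, 74.7 and 94.95, with no call. *Trim28*, the corepressor that guards imprints and silences retroviral repeats, stood at 237, 459 and 569.6, and was called in epiblast against endoderm, at 2.41-fold. *Pcna*, the replication clamp to which Dnmt1 binds, stood at 169, 288 and 376 and was called in epiblast against endoderm, at 2.22-fold. The order of the genes named so far was not that of the whole list. *Ctcf*, *Setdb1*, *Ehmt2*, *Nsd1* and *Setd2* were highest in mesoderm, and *Kdm1b* and *Ctcfl* in endoderm, with no call. *Zfp57*, a zinc finger protein that keeps methylation at imprinted loci, was also highest in mesoderm. It stood at 5.93, 13.8 and 6.61 and was called higher in mesoderm, by 2.33-fold over endoderm and 2.09-fold over epiblast, the latter not with upper quartile scaling or a pseudocount of 1. The median log2 difference of the list was 0.59 in mesoderm and 0.64 in epiblast against endoderm, and 0.11 in epiblast against mesoderm, where the median over all genes tested was -0.02. *Pcna* and *Cdca7* are also genes of proliferating cells, and the part of cell division in these values was not tested.

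All 11 genes of the methyl donor cycle were eligible. *Ahcy*, which removes the inhibitory product of each methylation reaction, was called 2.14-fold higher in epiblast than in endoderm, with RPKM 143, 233 and 307 in endoderm, mesoderm and epiblast. That call was lost with TMM or the median of ratios. The median log2 difference of this list was 0.14 in mesoderm and 0.30 in epiblast against endoderm, and 0.20 in epiblast against mesoderm, beside 0.10, 0.08 and -0.02 over all genes tested. *Mat2a*, which makes the methyl donor S-adenosylmethionine, stood at 93.4, 104 and 119, with no call. Of 6 genes that supply oxoglutarate to the Tet enzymes or act with Tet proteins, 5 were eligible and none was called in any comparison, a number too small to set against the 23.0, 24.6 and 10.3% called among all genes. *Cxxc4*, a CXXC domain partner of Tet2, was below RPKM 5 throughout, at 0.349, 2.70 and 0.406, and so was highest in mesoderm, as was *Tet2*.

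**Figure D5:**
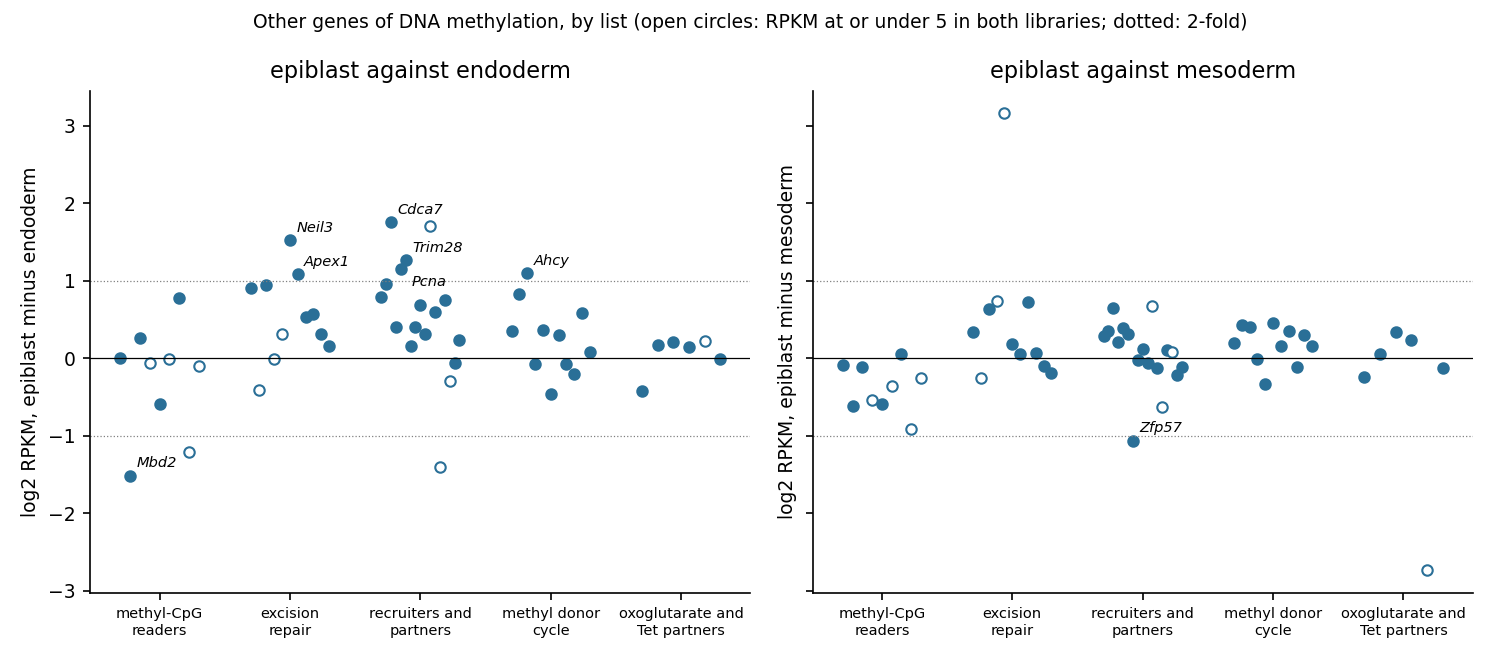
Difference in log2 RPKM of epiblast against endoderm (left) and against mesoderm (right) for the genes of the 5 lists, each point a gene in 1 library pair, with open circles for genes at or under RPKM 5 in both libraries and names on the genes called. In the left panel 6 of the 7 called genes lie above the upper 2-fold line, and in the right panel *Zfp57* is the only gene called. Among all genes tested between endoderm and epiblast, 8.94% were called higher in epiblast and 15.7% higher in endoderm. The lists were not tested against these shares.

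The genes whose pattern over the 3 libraries was most like that of a member were found among 9097 genes, by the Euclidean distance between log2 RPKM values centred on each gene's mean. *Dnmt3b* had no gene within a distance of 0.2. The nearest, *Wfdc2*, lay at 0.277 with RPKM 18.7, 12.4 and 85.9 in endoderm, mesoderm and epiblast, followed by *Dtx3l* at 0.317 and *Camkv* at 0.324. *Dnmt3a* had 20 genes within 0.2, led by *1810014F10Rik*, *Ly6e* and *Dnajb5*. *Ly6e* stood at 17.4, 36.8 and 67.0. *Tet1* had 230 such genes, led by *1500012F01Rik*, *Pola2* and *Frat2*, and *Dnmt1* had 1365, led by *Etaa1*, *Ncapg2* and *D19Bwg1357e*. With 3 libraries this measure describes only the order and size of 2 differences, and the number of near genes shows how common each pattern was.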

How the data were processed

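The processed data comprise 1 table for each germ layer. The authors deposited for each gene its counted reads (counts), its length, the percent of that length covered by reads, and RPKM. The RPKM values equal reads divided by length and by the summed counted reads of the library, within a relative difference of 2.03e-07. The submitters' processing notes name TopHat, mm10 and mm9. In the study's methods TopHat aligned reads to mm10 for the splicing analysis. The aligner and build behind the gene tables, the counting program, the annotation and the use of strand are not given in the sources used here. Gene counts cannot separate transcripts that begin at different promoters, and reads that fit several copies of a gene may be placed on any of them or dropped.

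Calls followed the criteria of the study: RPKM over 5 in at least 1 library, more than 2-fold difference, and a false discovery rate under 0.001 from the Audic and Claverie exact test (two-sided, of the counts), adjusted by Benjamini and Hochberg over all genes with a read in either library. Folds and shares carry exact binomial intervals and levels exact Poisson intervals, all at 95%. No pairing and no covariate could be used. The test script was checked on simulated data. Members and lists were chosen with earlier results of these data known. Median log2 differences and summed RPKM describe the lists, and no test was computed over a list. Named were all members, all markers and up to 4 called genes of each list by largest fold. Also named were the 3 genes nearest in pattern to *Dnmt1*, *Dnmt3a*, *Dnmt3b* and *Tet1*. Further list genes (*Mbd3*, *Hells*, *Mat2a*, *Cxxc4*, *Uhrf2*, *Ctcf*, *Setdb1*, *Ehmt2*, *Nsd1*, *Setd2*, *Kdm1b*, *Ctcfl*) and germline genes were named after their values were seen. *Foxf1* is listed as *Foxf1a*. Positions, transcripts and shared stretches (50 and 100 bases) came from GENCODE M21 and promoters from RefSeq. Alternatives were the RPKM and fold criteria, 4 scalings, a pseudocount of 1, and the edgeR exact test with an assumed coefficient of biological variation of 0.2 or 0.4. Analyses used Python 3.11.15 with SciPy 1.17.1, numpy 2.4.6, pandas 2.3.3, Biopython 1.88 and matplotlib 3.10.9, and R 4.3.3, edgeR 4.0.16 and DESeq2 1.42.0 (size factors only).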

Additional observations from a re-analysis of the deposited data

How the results depend on the processing

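The number of members called between endoderm and mesoderm (1, *Dnmt3a*) was the least stable. It became 2 with RPKM over 1 or with no RPKM criterion (*Dnmt3l* added) and 3 at 1.5-fold. It became 0 at 4-fold, with TMM, with the median of ratios, with the same RPKM total, with a pseudocount of 1, and in the edgeR exact test at an assumed variation of 0.2 or 0.4. Between endoderm and epiblast the 2 members called became 3 with RPKM over 1 or with no RPKM criterion (*Dnmt3l* added), 4 at 1.5-fold (*Dnmt1* and *Uhrf1* added), 1 at 4-fold (*Dnmt3b*) and 0 at an assumed variation of 0.4. Between mesoderm and epiblast the 1 member called became 2 at 1.5-fold and 0 at an assumed variation of 0.4, where 60 genes in all were called. Of 135 fold alternatives 75 stayed within the counting interval of the fold and 60 did not, and no called fold changed direction. On the log2 scale, 5 alternatives of 4 folds near 0 changed sign: *Dnmt3l* in epiblast against mesoderm (0.03, upper quartile), *Tet1* in mesoderm against endoderm (0.04, upper quartile), *Tet3* in mesoderm against endoderm (-0.07 with TMM and with the median of ratios) and *Uhrf1* in epiblast against mesoderm (-0.05, same RPKM total). TMM moved all log2 differences by -0.11 in both comparisons with endoderm, and the upper quartile moved those of epiblast against endoderm by 0.13. The calls of other pathway genes were put through the same alternatives after their values were seen, and in the edgeR exact test 10 of the 11 were lost at an assumed variation of 0.2 (all but *Cdca7* in epiblast against endoderm) and 11 at 0.4. No paired analysis was possible because each layer has 1 library, whose replicate number is only a name. Depth limits *Dnmt3l*, *Tet2* and *Tdg*, with at most 355 reads a library. Leaving out a library was not run, since each layer has 1.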

Other observations

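A list of 17 germline genes known to be silenced by promoter methylation in the embryo was examined beside the writers. None passed RPKM 5 in any library. Their summed RPKM was 8.71, 6.16 and 7.12 in endoderm, mesoderm and epiblast. Of the 17, 10, 3 and 4 were highest in endoderm, mesoderm and epiblast. Of all 8498 genes at or under RPKM 5 throughout, 34.3, 31.8 and 33.9% were highest in endoderm, mesoderm and epiblast. Several of the 10 rest on few reads, such as *Hormad1* (4, 2 and 0), *Dazl* (10, 8 and 4) and *Asz1* (9, 0 and 2). *Ddx4*, a germ cell helicase, stood at RPKM 3.43 in endoderm (407 reads), 1.12 in mesoderm (130 reads) and 0.534 in epiblast (65 reads). *Sohlh2*, a germ cell transcription factor, had 48, 6 and 4 reads in the same order. *Taf7l* had 16 reads in endoderm and 0 in both other libraries. *Sycp3*, a protein of the meiotic chromosome axis, ran the other way, at RPKM 2.10, 3.16 and 4.36. *Mael*, a gene of the piRNA pathway, had 2, 8 and 31 reads in endoderm, mesoderm and epiblast. With 1 library a layer these differences have no replicate check, and methylation of these promoters was not measured in these tables.

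*Dppa3*, which protects methylation in the zygote and marks germ cells, had 3, 6 and 10 reads in endoderm, mesoderm and epiblast. The paralogue *Uhrf2* stood at RPKM 33.3, 47.2 and 57.7, the same order of layers as *Dnmt1* and *Dnmt3a*.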
